A study of Homo sapiens with 12 samples.

Results

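NF-κB is a family of dimeric transcription factors built from 5 subunits, and 10 genes of the system were followed here by symbol: the subunit genes NFKB1, NFKB2, REL, RELA and RELB, the inhibitor genes NFKBIA and NFKBIE, and the target genes TNFAIP3, BIRC3 and ICAM1. They were taken by name, in a list drawn up with earlier results of these data known, and all 10 were listed among the 28008 genes of the silencing experiment and the 25435 genes of the overexpression experiment. In resting cells the inhibitors IκBα (NFKBIA) and IκBε (NFKBIE) hold the dimers in the cytoplasm. In the canonical branch the IKK complex marks these inhibitors for degradation, which frees dimers such as RELA with the p50 product of NFKB1. In the noncanonical branch the kinase NIK (MAP3K14) drives processing of the NFKB2 precursor to p52, which acts with RELB. Active dimers switch on their own brakes, among them NFKBIA, the ubiquitin-editing enzyme A20 (TNFAIP3) and the ubiquitin ligase cIAP2 (BIRC3), and the adhesion molecule ICAM1 is a classical inflammatory target.

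The RNA-Seq series addressed the transmembrane oncoprotein MUC1-C in prostate cancer cells, with 12 libraries in 4 groups of 3. LNCaP is an androgen receptor-positive human prostate cancer line, and LNCaP-ER cells are its derivative selected for resistance to the androgen receptor antagonist enzalutamide. In the silencing experiment LNCaP-ER/tet-MUC1shRNA cells, all carrying 1 doxycycline-inducible MUC1 shRNA, received vehicle (0.1% DMSO) or 500 ng/mL doxycycline (DOX) for 7 days. No library of cells given DOX without the MUC1 shRNA is among these samples, so the drug and the shRNA cannot be told apart. The overexpression experiment set LNCaP/MUC1-C OE cells against LNCaP cells. The study's methods describe a CMV promoter vector for MUC1-C, whereas these libraries are titled LNCaP shMUC1-C OE with the treatment tetMUC1-C, so which construct they carried was not settled. The controls are labelled wild type, whereas their data columns are named vector, so whether they carried an empty vector was not settled. Replicates are separate samples of the same line, so p-values measure only the spread between these samples, which may be technical.

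Total counts per library ranged from 28045894 to 45807989 in the silencing experiment and from 13806856 to 19208944 in the overexpression experiment. Counts of MUC1 itself were 26, 10 and 13 in the 3 vehicle libraries and 3, 42 and 8 in the 3 DOX libraries, both in replicate order. The groups overlapped (log2 fold change 0.12, SE 0.93, edgeR adjusted p = 0.935), and DOX replicate 2 had more MUC1 than any vehicle library, against its label. Without it the log2 fold change of MUC1 was -1.83 (edgeR adjusted p = 0.0617). As this library stood out by its MUC1 count, that value is not a test of silencing. The library labelled DOX replicate 2 also had 11.2% of the listed genes at 0 counts, where the other 5 libraries of the experiment had 27.95% to 38.1%, so the fold changes of this experiment are given with and without it. In the overexpression experiment MUC1 had 25 to 31 counts per LNCaP library and 9168 to 12622 counts per LNCaP/MUC1-C OE library. All 11 luminal prostate markers examined were detected in every LNCaP-ER library, at a summed 7050 to 8289 CPM (counts scaled to a common library total). In the LNCaP libraries they summed to 395 to 410 CPM with none at 0, and in the LNCaP/MUC1-C OE libraries to 104 to 115 CPM, with KLK2, KLK3 and FOLH1 at 0 in all 3.

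Promoter sequences are shown because 6 of the 10 genes carry, near an annotated start, letters that match the consensus κB motif, the binding site of these dimers. RefSeq windows of 300 bases (250 before and 50 after a start, GRCh38.p14) were found for 8 of the 10 genes, 12 windows in all, and were searched on both strands. A match was present in 7 of the 12 windows, and in 11.3% of all 35116 RefSeq windows. A match describes letters and not a bound site. The stretches below run 5′ to 3′ on the strand of the gene, with matches in capitals.
BIRC3, chr11:102317270-102317373, plus strand: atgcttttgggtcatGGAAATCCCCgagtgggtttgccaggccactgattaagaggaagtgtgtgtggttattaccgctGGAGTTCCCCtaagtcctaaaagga
NFKB2, chr10:102395514-102395693, plus strand, before an internal start: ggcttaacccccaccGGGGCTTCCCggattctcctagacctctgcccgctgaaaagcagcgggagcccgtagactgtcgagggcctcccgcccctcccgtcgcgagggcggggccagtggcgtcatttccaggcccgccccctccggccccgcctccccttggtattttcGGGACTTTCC
NFKBIA, chr14:35404806-35404845, minus strand: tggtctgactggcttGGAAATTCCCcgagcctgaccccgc
TNFAIP3, chr6:137867188-137867217, plus strand, before an internal start: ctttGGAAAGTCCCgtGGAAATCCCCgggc
NFKB1, chr4:102501300-102501329, plus strand: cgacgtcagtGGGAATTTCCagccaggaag
REL, chr2:60881517-60881546, plus strand: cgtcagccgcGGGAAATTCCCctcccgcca

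The matches of BIRC3 began 199 and 135 bases before the start, those of the NFKB2 window shown 176 and 21 bases before, that of NFKBIA 81, those of TNFAIP3 67 and 55, and that of NFKB1 49. The capitals of REL hold 2 overlapping matches, which began 47 and 46 bases before the start. A second NFKB2 window, not printed, held 3 matches, of which a pair overlapped. The NFKB2 window at the annotated gene start (chr10:102394110), the other NFKB1 window, both windows of RELA and the window of ICAM1 held no match.

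The first question was whether the NF-κB genes changed when MUC1 shRNA expression was induced in LNCaP-ER cells. NFKB2, RELB, NFKBIA, TNFAIP3 and BIRC3 were higher with DOX, and REL was lower. NFKB1, RELA and NFKBIE did not pass the test, and ICAM1 was too low to be tested. On log2(TPM + 1) NFKB1, RELA and NFKBIE were called higher, as were 95.0% of the genes called on that scale. The median of all genes there was 0.45, and NFKB1, RELA and NFKBIE stood at 0.08, 0.16 and 0.23 relative to it. Values are CPM normalized by edgeR's TMM factors, tests are quasi-likelihood tests in edgeR, with Benjamini-Hochberg adjustment over all genes tested, and a gene is called at an adjusted p under 0.05. By this rule 6 of the 9 tested genes were called (5 higher and 1 lower), against 27.3% of the 14683 genes tested, of which 12.8% were called higher and 14.5% lower. The 6 libraries separated into non-overlapping groups for 7 of the 9 genes, against 44.3% of all genes tested. The median log2 fold change was 0.76 over the 9 genes and -0.02 over all genes tested. In bulk RNA, a change in the number of cells that express a gene and a change in RNA per cell cannot be told apart.

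**Figure D1:**
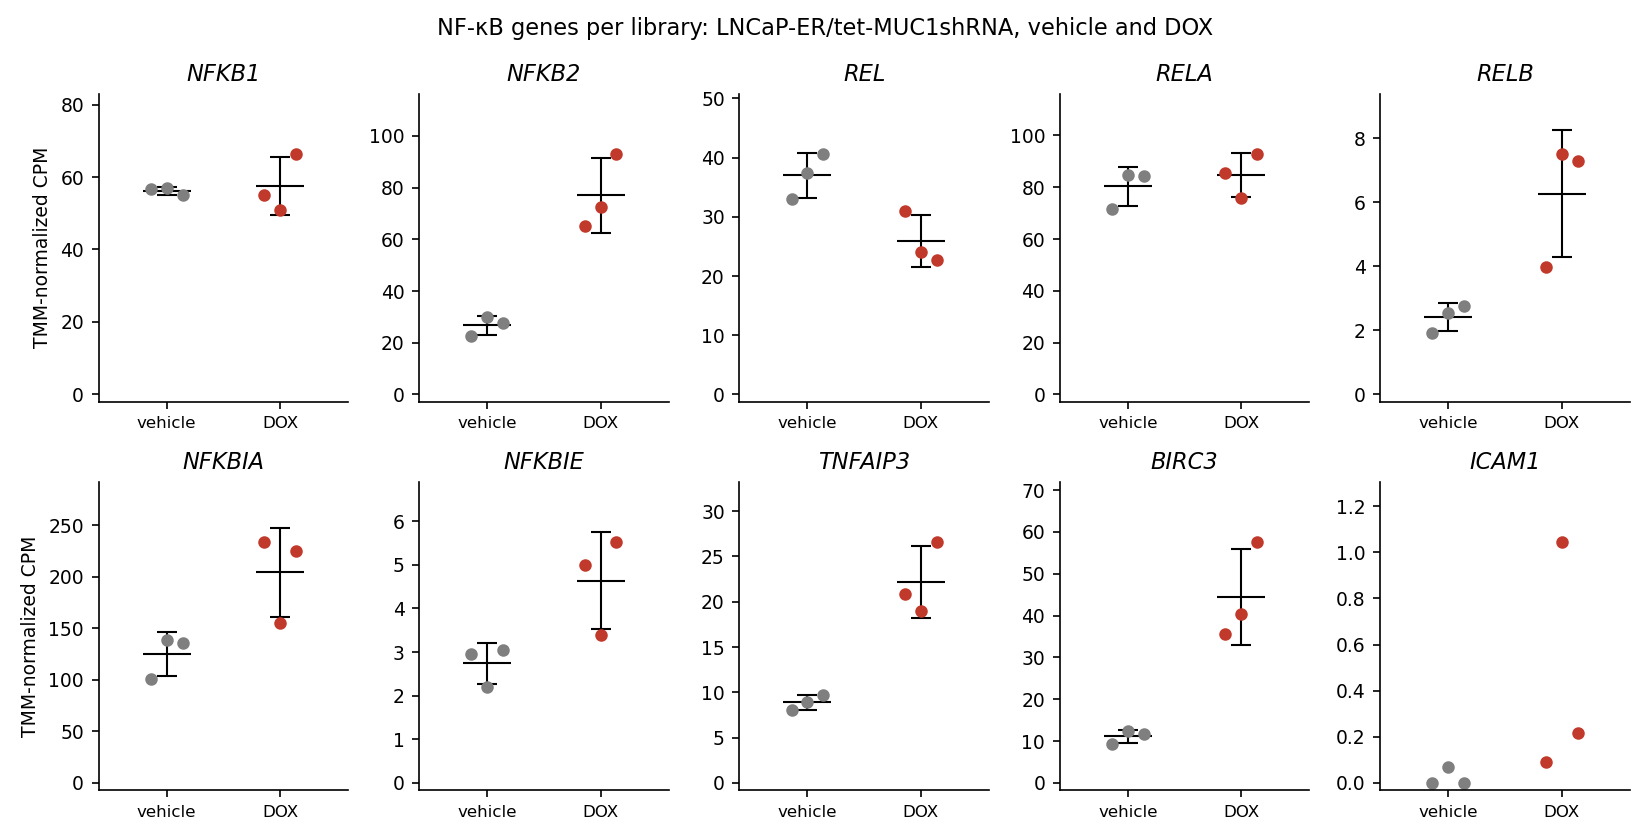
TMM-normalized CPM (y axis, linear, from 0) of the 10 NF-κB genes in each of the 3 vehicle and 3 DOX libraries of LNCaP-ER/tet-MUC1shRNA cells. Points are libraries in replicate order; the long bar is the mean and the error bar the SD (not drawn for ICAM1). NFKB2, TNFAIP3 and BIRC3 separate most widely, and NFKB1 and RELA overlap.

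Among the subunits, NFKB2 had the largest log2 fold change. NFKB2 (chr10:102394110-102402529) measured 22.6, 29.9 and 27.6 CPM with vehicle and 65.3, 72.6 and 93.1 CPM with DOX in replicate order. Every DOX library was above every vehicle library. The fold was 2.89 (log2 fold change 1.53, SE 0.16, edgeR adjusted p = 0.000598), and it was 1.61 on the log2 scale without the library labelled DOX replicate 2. RELB (chr19:45001464-45038192), the partner of p52, rested on 72 to 338 counts per library, at 1.91, 2.55 and 2.77 CPM with vehicle and 3.97, 7.51 and 7.29 CPM with DOX. These groups also did not overlap, with the library labelled DOX replicate 1 nearest to the vehicle libraries. RELB rose 2.60-fold (log2 fold change 1.38, SE 0.30, edgeR adjusted p = 0.0103). Its call was lost without DOX replicate 3 (adjusted p = 0.0521), the highest of the adjusted p-values over its alternatives, which began at 2.25e-08; without the library labelled DOX replicate 2 the log2 fold change was 1.27.

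NFKB1 and RELA, the canonical pair, did not pass the test. NFKB1 (chr4:102501359-102617302) measured 56.7, 57.0 and 54.9 CPM with vehicle and 55.1, 50.9 and 66.4 CPM with DOX. RELA (chr11:65653601-65663857), the p65 subunit of the canonical dimer, measured 71.7, 84.8 and 84.4 CPM with vehicle and 85.6, 75.9 and 92.9 CPM with DOX. Both genes overlapped between groups, with log2 fold changes of 0.03 (SE 0.11) for NFKB1 and 0.08 (SE 0.11) for RELA, and edgeR adjusted p-values of 0.855 and 0.630. The values were 0.15 and 0.19 with the library labelled DOX replicate 2 left out (adjusted p = 0.302 and 0.204). On log2(TPM + 1), where the median of all genes stood at 0.45, both were called higher by limma, NFKB1 at 0.53 (adjusted p = 0.0464) and RELA at 0.61 (0.0203), but neither was with a pseudocount of 0.1 (0.0853 and 0.0580). REL (chr2:60881574-60931612), which encodes c-Rel, measured 33.0, 37.3 and 40.7 CPM with vehicle and 30.9, 24.05 and 22.8 CPM with DOX. All 3 DOX values lay below the vehicle values, and DOX replicate 1 came closest to them. The log2 fold change of REL was -0.51 (SE 0.14, edgeR adjusted p = 0.0283), but it was 0.03 on log2(TPM + 1) and -0.43 without the library labelled DOX replicate 2. Its call was also lost without vehicle replicate 2 (adjusted p = 0.0865), vehicle replicate 3 (0.116), the library labelled DOX replicate 2 (0.0582) or DOX replicate 3 (0.109), and the adjusted p-values over its alternatives ran from 0.0144 to 0.925.

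Because the subunits share a library, their proportions do not depend on how libraries are scaled. Per transcript length (deposited TPM), RELA made up 56.1% ± 0.94 (SD, n = 3) of the summed level of the 5 subunits in vehicle libraries, ahead of NFKB1 at 22.2% ± 1.99, NFKB2 at 11.9% ± 0.82, REL at 7.86% ± 0.41 and RELB at 1.93% ± 0.23. No neighbours in this order overlapped. With DOX, RELA stood at 46.9% ± 2.47, NFKB2 at 26.9% ± 2.49 and NFKB1 at 17.8% ± 0.56, so NFKB2 and NFKB1 changed places without overlap. REL at 4.40% ± 1.04 and RELB at 3.98% ± 1.27 then overlapped. In counts, NFKB2 per NFKB1 count was 0.398, 0.524 and 0.503 in the vehicle libraries and 1.18, 1.43 and 1.40 in the DOX libraries. RELB per RELA count was 0.0267 to 0.0329 with vehicle and 0.0464 to 0.0990 with DOX. With 3 libraries against 3, an exact permutation test cannot go below p = 0.10, and no test of these ratios was run.

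Of the feedback inhibitors, NFKBIA rose and NFKBIE did not pass the test. NFKBIA (chr14:35401513-35404749) had the highest level of the 10 genes per transcript length (57.8 ± 4.89 TPM with vehicle, SD, n = 3). It measured 101, 138 and 136 CPM with vehicle and 234, 155 and 225 CPM with DOX. The groups did not overlap, and the library labelled DOX replicate 2 was nearest to the vehicle libraries. NFKBIA rose 1.64-fold (log2 fold change 0.71, SE 0.18, edgeR adjusted p = 0.0180), and its log2 fold change was 0.91 without that library (adjusted p = 0.00164). The call was lost without vehicle replicate 1 (adjusted p = 0.0554), vehicle replicate 3 (0.0536), DOX replicate 1 (0.0636) or DOX replicate 3 (0.0798). Adjusted p-values over the alternatives of NFKBIA ran from 1.40e-06, by limma on log2(TPM + 1), to 0.0798. The median of all genes on log2(TPM + 1) was 0.45. NFKBIE (chr6:44258166-44265551) rested on 65 to 256 counts per library, at 2.95, 2.21 and 3.06 CPM with vehicle and 5.003, 3.40 and 5.52 CPM with DOX. Its values did not overlap between groups, but the log2 fold change of 0.76 (SE 0.27) did not pass the test (edgeR adjusted p = 0.0633). With the library labelled DOX replicate 2 left out, the value was 0.98 (adjusted p = 0.0123). Adjusted p-values over its alternatives ran from 0.000307, by limma on log2(TPM + 0.1), to 0.228. The median of all genes on log2(TPM + 0.1) was 0.52.

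Of the 3 targets, TNFAIP3 and BIRC3 gave the clearest separation. TNFAIP3 (chr6:137866349-137883312) measured 8.05, 8.91 and 9.67 CPM with vehicle and 20.9, 19.0 and 26.6 CPM with DOX. The lowest DOX value was far above the highest vehicle value, and the gene rose 2.50-fold (log2 fold change 1.32, SE 0.16, edgeR adjusted p = 0.00114). BIRC3 (chr11:102317484-102339403) measured 9.38, 12.3 and 11.7 CPM with vehicle and 35.6, 40.3 and 57.6 CPM with DOX, with DOX replicate 3 highest. It rose 4.01-fold (log2 fold change 2.00, SE 0.20, edgeR adjusted p = 0.000522), the largest difference of the 9 genes tested. Without the library labelled DOX replicate 2 the log2 fold changes were 1.46 for TNFAIP3 and 2.10 for BIRC3. BIRC2, the neighbouring gene for the related cIAP1, measured 51.3, 64.1 and 64.6 CPM with vehicle and 53.0, 63.2 and 57.2 CPM with DOX. BIRC3 per BIRC2 count was therefore 0.180 to 0.192 in the vehicle libraries and 0.637 to 1.01 in the DOX libraries.

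ICAM1 (chr19:10271120-10286615) was close to the limit of detection. Its counts were 0, 2 and 0 with vehicle and 3, 31 and 10 with DOX, in replicate order. Most counts came from the library labelled DOX replicate 2, which also had the fewest genes at 0. Over summed libraries, 2 counts of 97360884 compared with 44 of 106772120, a ratio of 20.1 with an exact 95% interval of 5.23 to 171. Without the library labelled DOX replicate 2 the ratio was 8.04 (1.82 to 73.4). These intervals cover counting error only, and the edgeR fit without a filter on low counts gave ICAM1 an adjusted p of 0.114, and DESeq2 one of 0.0568.

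NFKB2, TNFAIP3 and BIRC3 were called under each of the 16 alternatives run for this experiment. When the library labelled DOX replicate 2 was left out, 6 of 9 were again called, with NFKBIE in and REL out, against 35.3% of all genes tested in that fit. Without DOX replicate 3 the count fell to 3, which were NFKB2, TNFAIP3 and BIRC3, against 13.7% of all genes tested in that fit. Summed over 7 markers of mesenchymal, androgen receptor-negative cell lines, the level was 4.70 to 6.65 CPM with vehicle (2 to 4 markers at 0, CAV1 and KRT7 in all 3 libraries) and 26.2 to 48.5 CPM with DOX (0 to 2 at 0). For 9 immune cell markers it was 0.272 to 0.391 CPM with vehicle (5 to 7 at 0, PTPRC, CD3E, CD14, CD74 and MS4A1 in all 3) and 0.625 to 6.77 CPM with DOX (0 to 4 at 0), highest in the library labelled DOX replicate 2. Lists of endothelial, fibroblast, basal and neuroendocrine markers stayed at or below a summed 16.7 CPM in each library of this experiment. The part of these genes in the results was not tested.

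The other genes of the NF-κB pathway were taken from a list of 83 genes in 7 roles. In the silencing experiment 57 were tested, and 12 were higher and 5 lower, 29.8% against the 27.3% of all genes. The median log2 fold change of the 57 genes was 0.09. Of 7 kinases, MAP3K14, which encodes NIK, rose from 31.4 ± 3.71 to 66.2 ± 4.47 CPM (SD, n = 3; log2 fold change 1.08, edgeR adjusted p = 0.000659). MAP3K7, which encodes the canonical-branch kinase TAK1, had a log2 fold change of -0.47 (adjusted p = 0.0186), though 0.07 on the TPM scale. On that scale the median of all genes was 0.45. MAP3K14 was called under all 16 alternatives, and MAP3K7 lost its call without vehicle replicate 2, vehicle replicate 3 or DOX replicate 1 (adjusted p up to 0.0881). The other 5 kinases, the IKK genes among them, were not called.

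Among 9 tested receptors, 1 rose and 2 fell, 33.3% called against 27.3% of all genes tested. TNFRSF12A, the TWEAK receptor Fn14, was counted 42, 86 and 53 times with vehicle and 155, 195 and 449 times with DOX. It rose by a log2 fold change of 1.83 (SE 0.39, edgeR adjusted p = 0.00972), and without DOX replicate 3 its adjusted p was 0.0502. IL1RAP, the accessory chain of the interleukin-1 receptor, went from 24.4 ± 2.79 to 12.5 ± 0.80 CPM (SD, n = 3; edgeR adjusted p = 0.00165). It was not called on the TPM scale, where the median of all genes was 0.45. Its ligand-binding partner IL1R1 went from 85.7 ± 10.7 to 59.4 ± 8.80 CPM (SD, n = 3; edgeR adjusted p = 0.0210), although its log2 fold change of -0.53 became 0.03 on the TPM scale and its call was lost without vehicle replicate 2, vehicle replicate 3 or DOX replicate 3 (adjusted p up to 0.0869). All 16 adaptor and ubiquitin ligase genes were tested and 4 were called, each higher, 25% against 27.3% of all genes tested. Among them were TRADD, the adaptor of the TNF receptor (log2 fold change 0.63), and SHARPIN, a subunit of the linear ubiquitin ligase (0.63). TRADD lost its call without vehicle replicate 2, vehicle replicate 3, DOX replicate 1 or DOX replicate 3 (adjusted p up to 0.176), and also with DESeq2 (0.0507).

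Of 11 tested inhibitors and negative regulators, 2 were called and both rose, 18.2% against 27.3% of all genes tested. TRAF1, a signalling scaffold that NF-κB induces, was counted 5, 19 and 9 times with vehicle and 37, 125 and 155 times with DOX (log2 fold change 2.99, SE 0.67, edgeR adjusted p = 0.0118). Without vehicle replicate 3 or DOX replicate 3 its adjusted p was 0.0555 and 0.0509. ZC3H12A, an RNase that degrades cytokine mRNAs, had a log2 fold change of 0.56 (adjusted p = 0.0363), and lost its call without vehicle replicate 2, vehicle replicate 3, DOX replicate 1 or DOX replicate 3 (adjusted p up to 0.138). Of 8 ligand genes, only TNFSF10, which encodes the death ligand TRAIL, passed the filter on low counts. It was counted 58, 52 and 71 times with vehicle and 2, 6 and 7 times with DOX, and fell by 3.78 on the log2 scale (SE 0.57, edgeR adjusted p = 0.00246). The other 7 ligand genes, TNF and IL1B among them, had at most 14 counts in any library of this experiment.

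Among cytokine and chemokine targets, 5 of 12 were tested and 2 rose, 40% called against 27.3% of all genes tested. IL32 went from 1.46 ± 0.16 to 3.90 ± 1.57 CPM (SD, n = 3; log2 fold change 1.42, edgeR adjusted p = 0.0208), but lost its call without vehicle replicate 1, 2 or 3 or DOX replicate 3 (adjusted p up to 0.100). The second was the chemokine gene CCL5, which the rule on named genes left out for its low mean and which is named after its values were seen, at 12, 4 and 3 counts with vehicle and 11, 30 and 154 with DOX. Of the 8 tested targets with survival, adhesion or other roles, 2 rose and 1 fell (37.5% called). IRF1, an interferon-regulatory transcription factor, measured 2.37, 4.42 and 4.90 CPM with vehicle and 9.34, 10.1 and 13.4 CPM with DOX (log2 fold change 1.50, SE 0.28, edgeR adjusted p = 0.00613). The adhesion proteoglycan gene SDC4 had a log2 fold change of 0.54 (adjusted p = 0.0352), which did not pass without vehicle replicate 1, 2 or 3 or DOX replicate 3 (adjusted p up to 0.132). CFLAR, which encodes the caspase inhibitor c-FLIP, had a log2 fold change of -0.28 (adjusted p = 0.0459) that was 0.20 on the TPM scale and was not called when any 1 library was left out (adjusted p of 0.0802 to 0.120), nor with DESeq2, other scaling factors or no filter (up to 0.151). Without the library labelled DOX replicate 2, the log2 fold changes of the named pathway genes kept their signs. They were 1.09 for MAP3K14, -0.40 for MAP3K7, 1.91 for TNFRSF12A, -0.98 for IL1RAP, -0.59 for IL1R1, 0.75 for TRADD and 0.56 for SHARPIN. Among regulators, ligands and targets they were 2.68 for TRAF1, 0.64 for ZC3H12A, -4.05 for TNFSF10, 1.30 for IL32, 1.59 for IRF1, 0.36 for SDC4 and -0.23 for CFLAR. Without that library, 27 pathway genes were called in place of 17. Their number was 7 without vehicle replicate 2, 6 without vehicle replicate 3 and 7 without DOX replicate 3. Over all genes tested, the calls were 5243 of 14848, 2200 of 15310, 2002 of 15290 and 2067 of 15064 in the same order. With all libraries they were 4006 of 14683.

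**Figure D2:**
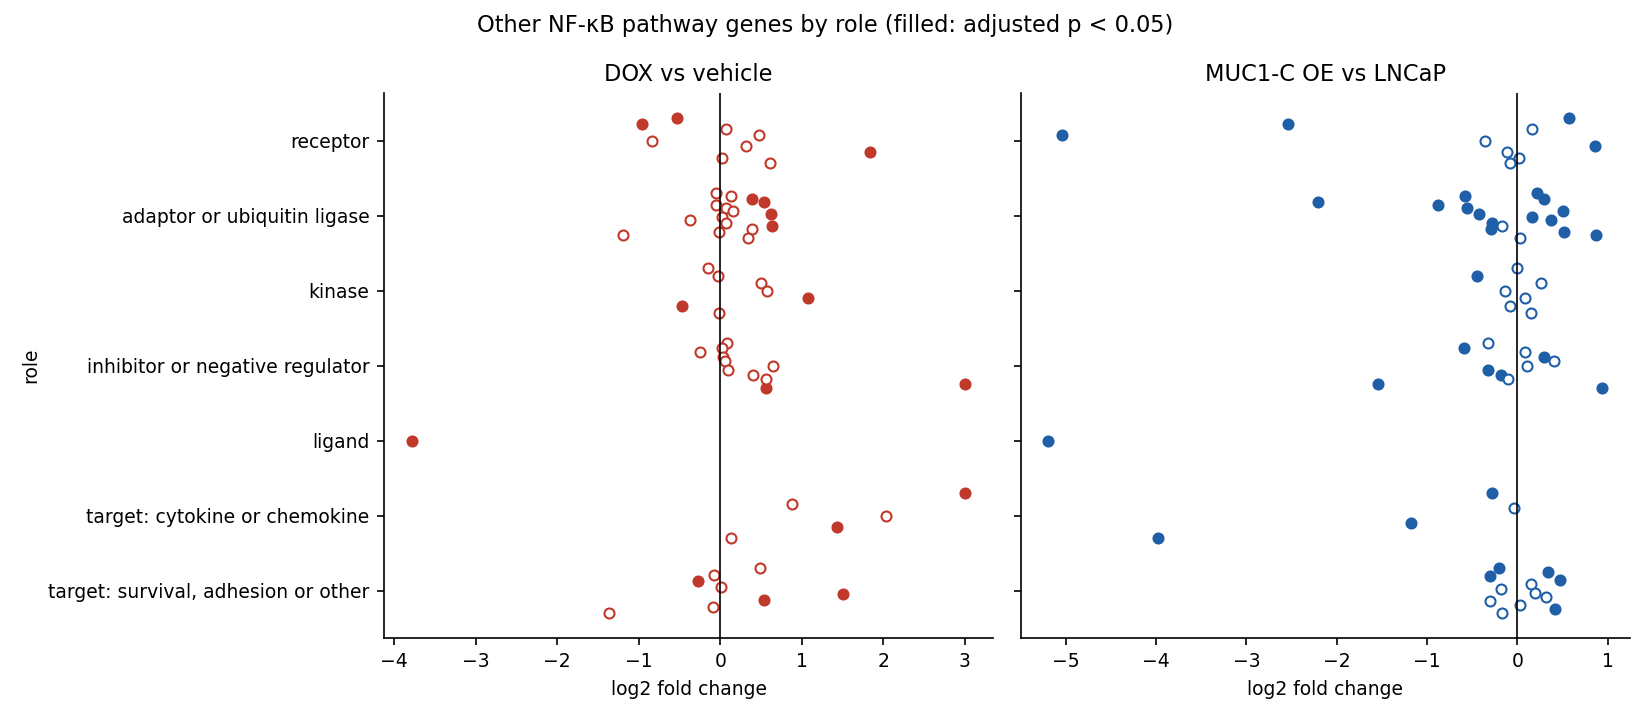
Log2 fold change (x axis) of the other NF-κB pathway genes by role (y axis), for DOX against vehicle on the left and MUC1-C OE against LNCaP on the right. Each point is 1 tested gene, filled where the adjusted p was under 0.05; 17 of 57 are filled on the left and 34 of 60 on the right. Vertical spacing within a role only separates the points.

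The second comparison asked how the same genes differed between LNCaP/MUC1-C OE and LNCaP cells. NFKB1, REL, NFKBIA and TNFAIP3 were higher with MUC1-C overexpression, and NFKB2, RELA, RELB, NFKBIE and BIRC3 were lower. Thus 9 of the 9 tested genes were called, 4 higher and 5 lower, in an experiment where 67.3% of the 13836 genes tested were called (33.2% higher and 34.1% lower). The 6 libraries formed non-overlapping groups for all 9 genes and for 70.3% of all genes tested. Most differences were small, since 2 of the 9 genes exceeded an absolute log2 fold change of 1. The median log2 fold change was -0.23 over the 9 genes and -0.01 over all genes tested. Both groups differ in many other transcripts, as the luminal markers above show, and markers of mesenchymal lines summed to 472 to 519 CPM in LNCaP and 1289 to 1389 CPM in LNCaP/MUC1-C OE libraries, with none of 7 at 0. Immune markers summed to 2.91 to 5.17 CPM (2 to 4 of 9 at 0) and 1.62 to 2.68 CPM (3 to 6 at 0), and endothelial, fibroblast, basal and neuroendocrine lists stayed at or below 59.3 CPM. The part of these genes in the results was not tested.

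**Figure D3:**
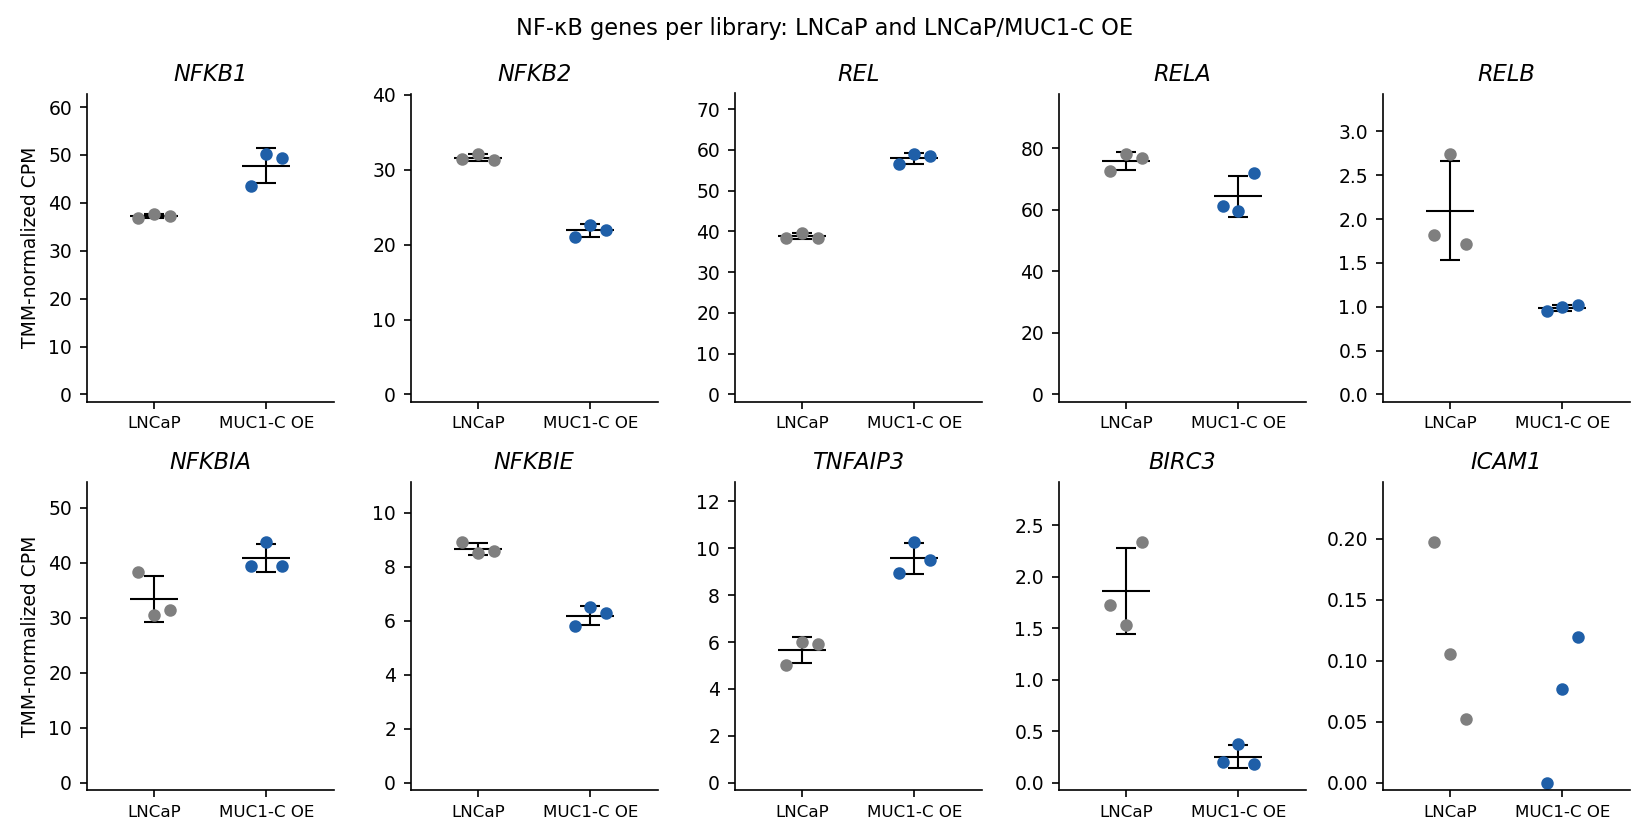
TMM-normalized CPM (y axis, linear, from 0) of the 10 NF-κB genes in each of the 3 LNCaP and 3 LNCaP/MUC1-C OE libraries. Points are libraries in replicate order; the long bar is the mean and the error bar the SD (not drawn for ICAM1). BIRC3 falls from between 1.53 and 2.34 CPM to between 0.18 and 0.38 CPM, and 9 of the 10 genes show no overlap.

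NFKB2 measured 31.5, 32.1 and 31.3 CPM in LNCaP and 21.0, 22.6 and 22.0 CPM in LNCaP/MUC1-C OE libraries. Replicates lay within a narrow band in each group, and the gene was 1.45-fold lower (log2 fold change -0.53, SE 0.07, edgeR adjusted p = 3.78e-06). RELB measured 1.82, 2.75 and 1.71 CPM in LNCaP and 0.95, 0.99 and 1.02 CPM in LNCaP/MUC1-C OE libraries, where it rested on 13 to 17 counts per library. It was 2.11-fold lower (log2 fold change -1.08, SE 0.27, edgeR adjusted p = 0.00194), and this held without each library in turn (log2 fold change -1.20 to -0.84, adjusted p up to 0.0172). RELA measured 72.7, 78.3 and 76.9 CPM in LNCaP and 61.4, 59.7 and 72.1 CPM in LNCaP/MUC1-C OE libraries. The groups stood apart by less than 1 CPM, and the log2 fold change was -0.23 (SE 0.07, edgeR adjusted p = 0.00538).

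NFKB1 and REL moved the other way. NFKB1 measured 36.7, 37.6 and 37.2 CPM in LNCaP and 43.6, 50.3 and 49.4 CPM in LNCaP/MUC1-C OE libraries, 1.28-fold higher (log2 fold change 0.36, SE 0.07, edgeR adjusted p = 0.000148). REL measured 38.5, 39.7 and 38.4 CPM in LNCaP and 56.4, 59.1 and 58.4 CPM in LNCaP/MUC1-C OE libraries, 1.49-fold higher (log2 fold change 0.58, SE 0.06, edgeR adjusted p = 1.43e-07). Replicate values of REL within a group differed far less than the groups did. In counts, NFKB2 per NFKB1 count was 0.840 to 0.857 in LNCaP and 0.445 to 0.483 in LNCaP/MUC1-C OE libraries, and RELA per REL count was 1.89 to 2.00 and 1.01 to 1.23.

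The inhibitors differed in direction from each other. NFKBIA measured 38.3, 30.5 and 31.5 CPM in LNCaP and 39.5, 43.8 and 39.4 CPM in LNCaP/MUC1-C OE libraries, with LNCaP replicate 1 just below the overexpressing group. Its log2 fold change of 0.29 (SE 0.08, edgeR adjusted p = 0.00619) became 0.13 (adjusted p = 0.178) when counts were scaled by library size only, where the median of all genes was -0.16; adjusted p-values over its alternatives ran from 0.000249 to 0.178. NFKBIE measured 8.91, 8.50 and 8.57 CPM in LNCaP and 5.82, 6.50 and 6.28 CPM in LNCaP/MUC1-C OE libraries. It was 1.40-fold lower, with clear space between the groups (log2 fold change -0.48, SE 0.12, edgeR adjusted p = 0.00161).

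The targets also split. TNFAIP3 measured 5.02, 6.02 and 5.92 CPM in LNCaP and 8.93, 10.3 and 9.51 CPM in LNCaP/MUC1-C OE libraries, 1.69-fold higher (log2 fold change 0.76, SE 0.12, edgeR adjusted p = 3.85e-05). BIRC3 was counted 35, 29 and 45 times in LNCaP and 3, 5 and 3 times in LNCaP/MUC1-C OE libraries, and was 7.36-fold lower (log2 fold change -2.88, SE 0.37, edgeR adjusted p = 2.64e-06). The counts are few, and leaving out each library in turn gave log2 fold changes of -3.23 to -2.66. BIRC2 was higher with overexpression, at 51.9 ± 1.37 CPM in LNCaP and 60.5 ± 1.06 CPM in LNCaP/MUC1-C OE libraries (SD, n = 3; log2 fold change 0.22, edgeR adjusted p = 0.00218). BIRC3 per BIRC2 count was 0.0288 to 0.0450 and 0.00299 to 0.00620. ICAM1 was counted 4, 2 and 1 times in LNCaP and 0, 1 and 2 times in LNCaP/MUC1-C OE libraries, a ratio over summed libraries of 0.506 with an exact 95% interval of 0.0844 to 2.21, so a difference was not detectable at this depth.

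**Figure D4:**
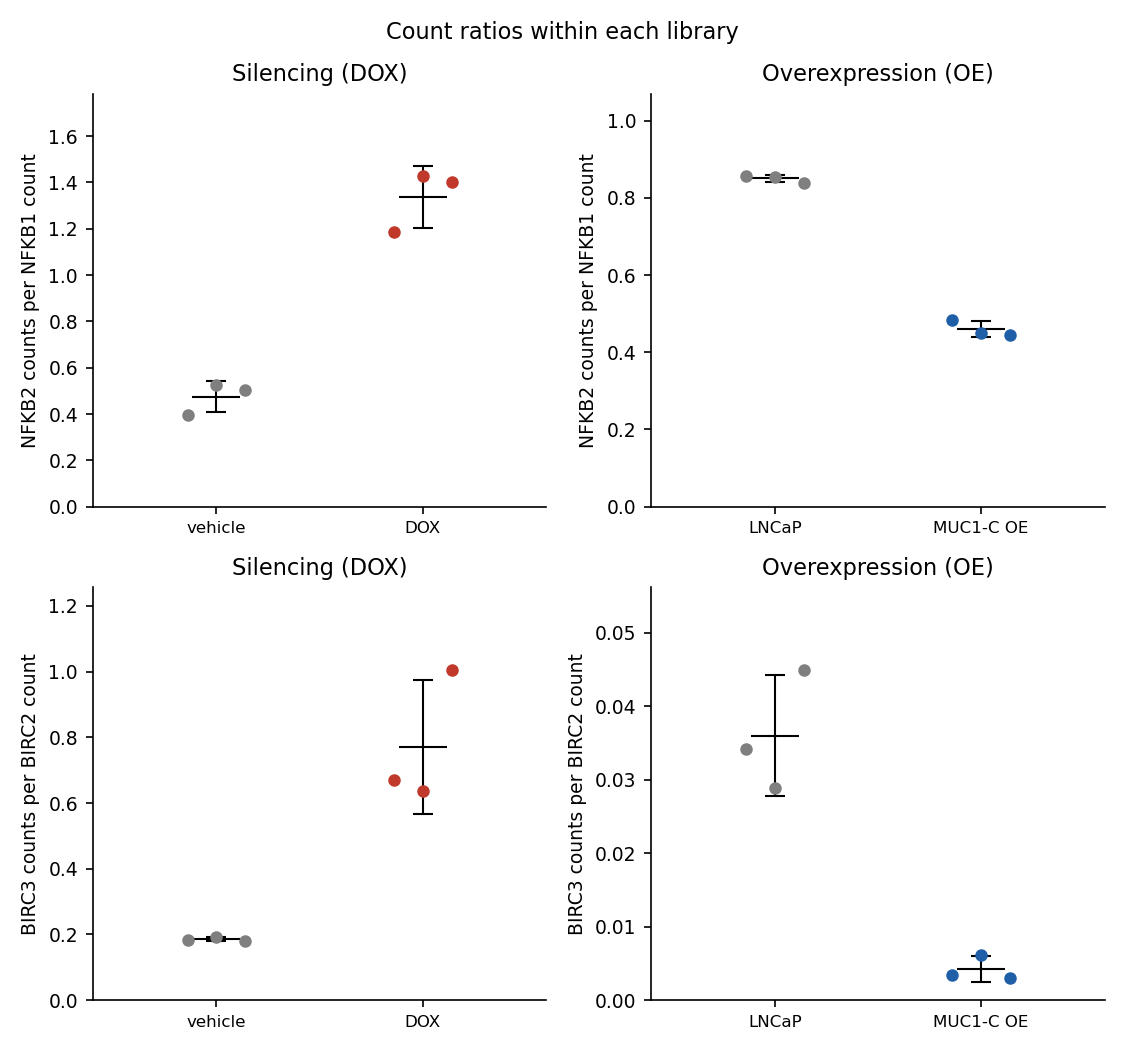
Counts of NFKB2 per count of NFKB1 (top) and of BIRC3 per count of BIRC2 (bottom) in each library of the silencing (left) and overexpression (right) experiments, on linear y axes that start at 0 and differ between panels. Points are libraries, the long bar the mean and the error bar the SD. Groups are separate in all 4 panels, higher with DOX and lower with MUC1-C OE.

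Of the 83 other pathway genes, 60 were tested in the overexpression experiment, and 14 were higher and 20 lower, 56.7% against the 67.3% of all genes. Their median log2 fold change was -0.08. Of 9 tested receptors, 2 rose and 2 fell. IL1R1 went from 3.71 ± 0.54 to 0.63 ± 0.13 CPM (SD, n = 3; log2 fold change -2.54, edgeR adjusted p = 1.21e-07). CD40, which signals to the noncanonical branch, had a log2 fold change of 0.57 (adjusted p = 0.00308), and the flagellin receptor gene TLR5 one of 0.86 (adjusted p = 0.0166) that was not called without LNCaP replicate 1 or LNCaP/MUC1-C OE replicate 1 (adjusted p up to 0.0957), nor with DESeq2 (0.0922). LTBR, the lymphotoxin β receptor gene, was the other gene that fell; it lay under the abundance limit for named genes and is given after its values were seen, at 36, 36 and 28 counts in LNCaP and 1, 0 and 1 in LNCaP/MUC1-C OE libraries. In the separately normalized LNCaP-ER libraries LTBR stood at 127 to 181 CPM.

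Of 16 adaptors and ubiquitin ligases, 7 rose and 7 fell, 87.5% called against 67.3% of all genes tested. TRAF5 (log2 fold change 0.87) and TRAF3 (0.52), the latter a brake on NIK, had the largest increases among those at 1 CPM or more, and RBCK1 (-0.88) and IRAK1 (-0.57), of the linear ubiquitin ligase and the interleukin-1 receptor complex, the largest decreases, with edgeR adjusted p-values of 5.28e-05 or less. Only IKBKB, the catalytic IKKβ gene, was called among 7 kinases (14.3%). It fell from 51.4 ± 0.85 to 37.6 ± 3.08 CPM (SD, n = 3), with a log2 fold change of -0.44 (edgeR adjusted p = 1.55e-05). MAP3K14, at 7.39, 6.02 and 7.06 CPM in LNCaP and 7.51, 8.03 and 6.40 CPM in LNCaP/MUC1-C OE libraries, was not called. Among 11 tested inhibitors and negative regulators, 2 rose and 4 fell (54.5% called). ZC3H12A (log2 fold change 0.94, adjusted p = 0.000477) and NFKBIB, the IκBβ gene (0.30, adjusted p = 0.0103), rose, whereas TRAF1 (-1.54, adjusted p = 0.000138) and the deubiquitinase gene CYLD (-0.59, adjusted p = 6.70e-08) fell. NFKBIB was not called without LNCaP replicate 2 or LNCaP/MUC1-C OE replicate 3 (adjusted p up to 0.0670), nor with library size only.

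Of 4 tested cytokine and chemokine targets, 3 fell, 75% called against 67.3% of all genes tested. LIF, a cytokine of the interleukin-6 family, was counted 108, 107 and 122 times in LNCaP and 4, 1 and 11 times in LNCaP/MUC1-C OE libraries (log2 fold change -3.98, SE 0.31, edgeR adjusted p = 3.87e-09). CSF1, a macrophage growth factor gene, had a log2 fold change of -0.28 (adjusted p = 0.0199), which did not pass without LNCaP replicate 2, LNCaP replicate 3 or LNCaP/MUC1-C OE replicate 2 (adjusted p up to 0.0911), nor with DESeq2 (0.0870). Among 12 tested targets with survival, adhesion or other roles, 3 rose and 2 fell (41.7% called). GADD45B (log2 fold change 0.47) and the mitochondrial superoxide dismutase gene SOD2 (0.42) rose, CFLAR fell (-0.31), and the survival gene BCL2L1 had a log2 fold change of -0.20 that failed the test when LNCaP replicate 1, LNCaP replicate 2, LNCaP/MUC1-C OE replicate 2 or LNCaP/MUC1-C OE replicate 3 was left out (adjusted p up to 0.145), and also with DESeq2 (0.0767). TNFSF10, the only ligand gene tested, lay under the abundance limit and is given after its values were seen. It was counted 16, 29 and 18 times in LNCaP and 0, 0 and 1 times in LNCaP/MUC1-C OE libraries, and was called lower.

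**Figure D5:**
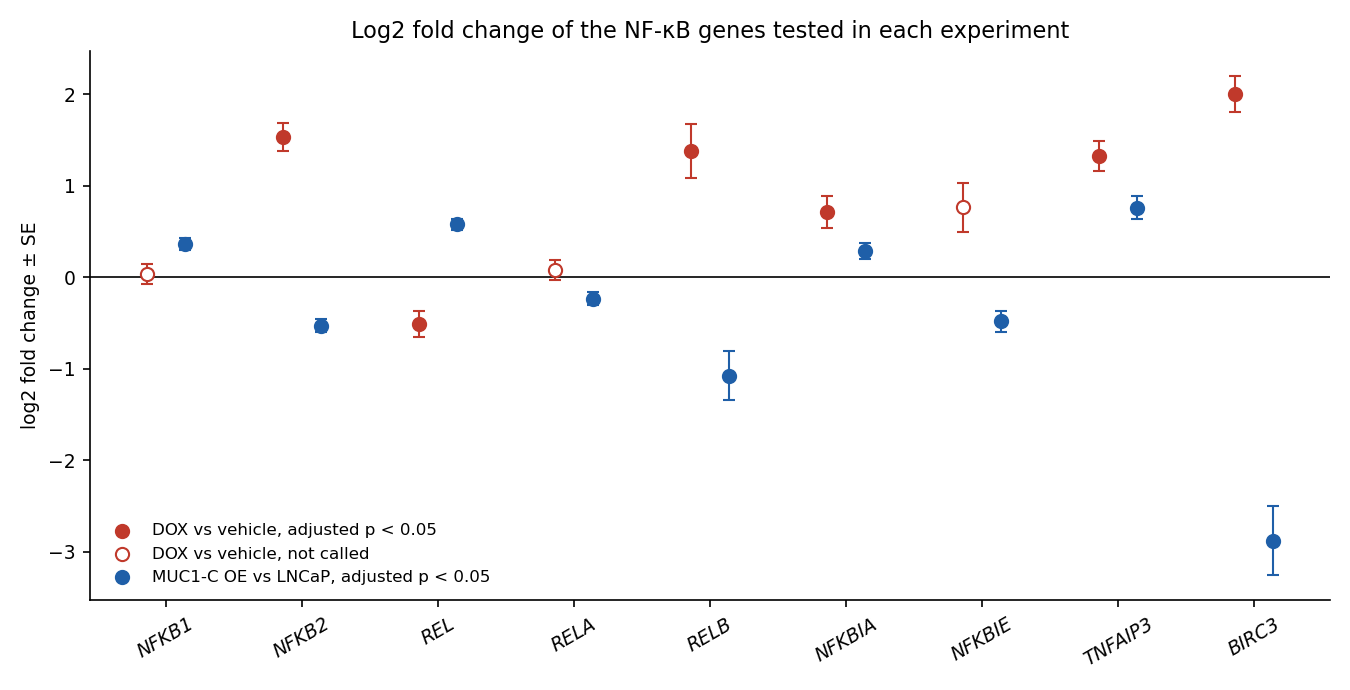
Log2 fold change (y axis, error bars SE) of the 9 tested NF-κB genes for DOX against vehicle in LNCaP-ER/tet-MUC1shRNA cells and for MUC1-C OE against LNCaP. Filled points had an adjusted p under 0.05. NFKB2, RELB and BIRC3 lie above 0 with DOX and below 0 with MUC1-C OE; ICAM1 was not tested.

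The 2 experiments shared no library, and their tables were normalized separately. Of the 9 genes tested in both, 6 were called in both, 4 in opposite directions and 2 in the same direction. Of the 11682 genes tested in both, 21.3% were called in both, 14.6% in opposite directions and 6.75% in the same direction. NFKB2, RELB and BIRC3 were higher with DOX and lower with MUC1-C overexpression. REL was lower with DOX and higher with overexpression, except that its sign with DOX flipped on the TPM scale. There the median of all genes was 0.45, and REL stood at -0.42 relative to it. NFKBIA and TNFAIP3 were higher in both, although NFKBIA was not called in the overexpression experiment with library size only. The experiments differ in cell line and in manipulation, and the difference between their fold changes was not tested.

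Levels in the untreated groups are given side by side as CPM of the library total, without a test, because the tables were separate. NFKBIA stood at 121 ± 16.9 CPM in LNCaP-ER vehicle and 35.3 ± 4.58 CPM in LNCaP libraries (SD, n = 3 each). BIRC3 stood at 10.8 ± 1.18 and 1.97 ± 0.44 CPM, and TNFAIP3 at 8.64 ± 0.54 and 5.96 ± 0.56 CPM. NFKBIE was the reverse, at 2.67 ± 0.48 and 9.13 ± 0.26 CPM. RELA, at 78.1 ± 4.82 and 80.1 ± 2.83 CPM, and RELB, at 2.34 ± 0.36 and 2.21 ± 0.59 CPM, overlapped between these groups, as their ranges of 72.5 to 81.2 and 76.9 to 82.3 CPM and of 1.94 to 2.64 and 1.81 to 2.89 CPM show. NFKB1 stood at 54.8 ± 2.50 and 39.2 ± 0.34 CPM, NFKB2 at 25.9 ± 2.91 and 33.3 ± 0.43 CPM, and REL at 35.98 ± 2.69 and 41.0 ± 0.67 CPM. Strand use in the authors' counting is not stated, and NFKB1, RELA, TNFAIP3 and ICAM1 overlap noncoding or antisense genes in the RefSeq annotation, so their counts may include reads from those genes.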

How the data were processed

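RNA-Seq of 12 cell line libraries was analysed. Per the labels, the authors prepared stranded mRNA libraries. The paper's methods state that total RNA from triplicate cultures was used and refer to an earlier description. RN7SK, the 7SK RNA gene, held 1.04% to 3.08% of counts in the silencing libraries and was not listed in the overexpression experiment. The submitters' processing notes name STAR, DESeq2 and GRCh38/hg38. Versions, annotation and strand settings are not given in the sources used here. The authors deposited whole-number counts per gene symbol, not normalized, for both experiments, and TPM values for the silencing experiment over 25545 genes. The overexpression table also held 12 columns of other cell lines, which were not used.

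Each experiment was fitted alone in R 4.3.3 with edgeR 4.0.16 (TMM, default filter on low counts, robust glmQLFit, glmQLFTest, Benjamini-Hochberg over all genes tested, threshold 0.05). SE is the absolute log2 fold change divided by the square root of F. TMM-normalized CPM are given with tests. Ratios of ICAM1 counts have exact conditional binomial 95% intervals. Alternatives changed the tool (DESeq2 1.42.0), the scaling (median-of-ratios factors or library size only) and the filter (none, or 10 counts or more in each library). They also changed the threshold (log2 fold changes of 1 or more in size as well) and the samples (a replicate block, or each library left out). For the silencing experiment, they added limma 3.58.1 on log2(TPM + 1) or log2(TPM + 0.1) with at least 1 TPM in 3 libraries. A last one used limma on log2(TPM + 1) with no filter. Adding 1 to TPM shrinks the fold changes of low genes. The fit was tested on simulated counts.

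Named are the 10 genes, MUC1, and, for each role and experiment, up to 2 increases and 2 decreases among called pathway genes with a mean of at least 1 CPM. BIRC2 in both experiments, CCL5 with DOX, and LTBR, TNFSF10 and MAP3K14 in the overexpression experiment are named outside this rule, chosen after values were seen. The genes, pathway and marker lists were chosen with earlier results of these data known. Coordinates are from RefSeq on GRCh38.p14. Pairs of replicates differed beyond sampling noise (chi-square over its degrees of freedom, 2.20 to 61.7), so each library counts once.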

Additional observations from a re-analysis of the deposited data

How the results depend on the processing

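In the silencing experiment, leaving out 1 library at a time gave 2002 to 5243 genes called, 3 to 6 of the 9 NF-κB genes and 6 to 27 pathway genes. The lowest of the first 2 counts came without vehicle replicate 3 (2002 genes) and without DOX replicate 3 (3 NF-κB genes); vehicle replicate 2 and DOX replicate 3 also decided the count of all genes (2200 and 2067 without them). On log2(TPM + 1), 28 pathway genes and 8 NF-κB genes (all tested but REL) were called, against 5140 of the 11404 genes tested on that scale. On the TPM scales the median of all genes moved up by 0.47 with a pseudocount of 1 and by 0.54 with 0.1, and 95.0% and 94.5% of called genes were higher, against 46.8% in the TMM fit and 59.6% with library size only. The direction changed there for REL (0.03, 0.04 and 0.03 on log2(TPM + 1), log2(TPM + 0.1) and log2(TPM + 1) with no filter), IL1R1 (0.03, 0.03 and 0.03), MAP3K7 (0.07, 0.08 and 0.07) and CFLAR (0.20, 0.27 and 0.20). Relative to the median on log2(TPM + 1), REL stood at -0.42, NFKB2 at 1.41, TNFAIP3 at 0.83 and BIRC3 at 1.31.

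Where log2 fold changes also had to reach 1 in size, 988 genes, 4 NF-κB genes and 7 pathway genes were called in the silencing experiment, and 1917, 2 and 7 in the overexpression experiment, by construction. With library size only, 32.3% of called genes were higher in the overexpression experiment, against 49.4%. Called in that fit were 8 NF-κB genes and 9438 of the 13836 genes tested. Whether replicate numbers pair libraries is not known. Correlations of the deviations of same-numbered libraries were -0.07 to 0.09 and -0.15 to -0.03. With 3 libraries a group these correlations cannot settle it. With a replicate block, 4226 genes and 6 NF-κB genes were called in the silencing experiment and 8965 and 9 in the overexpression experiment, and of the named genes TRADD (adjusted p = 0.0566) and CFLAR (0.0740) in the silencing experiment lost their calls, and no other named gene did. With 3 libraries a group, small differences in low genes such as NFKBIE and ICAM1 are near the limit of detection.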
